A study of Drosophila melanogaster with 16 samples.

Results

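GILT1, GILT2 and GILT3 are the Drosophila melanogaster genes that carry the name GILT, for gamma-interferon-inducible lysosomal thiol reductase. The 3 genes were found in the deposited tables through their FlyBase IDs (GILT1 FBgn0038149, GILT2 FBgn0039099, GILT3 FBgn0039098), 3 of 15682 genes listed at each collection time. Enzymes of this family sit in lysosomes, where in mammals they reduce the disulfide bonds of proteins taken up for breakdown and so help them unfold. In flies the family has been linked to defence against bacteria. All 3 genes lie on chromosome arm 3R. In the BDGP6 annotation GILT3 and GILT2 are direct neighbours on the same strand, and GILT1 lies elsewhere on the arm.

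The study sequenced total RNA of mixed-sex embryos labelled clamp RNAi and of embryos labelled MTD control. CLAMP recognises GA-rich DNA through its zinc fingers. Embryos of both genotypes were 0-2 hr or 2-4 hr old, and each of the 4 groups has 4 libraries, 16 in all. The controls carry the germline drivers P{COG-Gal4:VP16} on the first chromosome, P{Gal4-nos.NGT}40 on the second and P{nos-Gal4-VP16} on the third, with no interference construct. The clamp RNAi strain has the same drivers over y[1] sc[*] v[1] on the first chromosome, over + on the second and over the construct P{TRiP.GLC01858}attP2 on the third. Genotypes thus differ in the construct, in the number of driver copies and in the chromosomes that came with the construct, and these cannot be told apart. Mothers of every group were virgin females, aged 3 to 5 days, mated to yw males. The deposited tables compare a condition B with a condition A, and no header or label ties either letter to a genotype. In the authors' deposited table Clamp had a mean of 2789 normalized reads in A and 42.3 in B at 0-2 hr, and 3225 in A and 83.0 in B at 2-4 hr. B is therefore called here the condition with less Clamp RNA.

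Each deposited condition mean is an average over 4 libraries of whole reads divided by a size factor, and is written with about 15 significant digits. For means of up to 600 normalized reads, the whole reads of each library could be worked back from it. The libraries so recovered carry a condition and a time but no replicate number or label. Their size factors, the relative depths, ran from 0.887 to 1.24 at 0-2 hr and from 0.878 to 1.21 at 2-4 hr. The condition means summed to 14982606 normalized reads in A and 14929236 in B at 0-2 hr, and to 14013202 and 13880047 at 2-4 hr. No label tells whether libraries of a group share a cross, so the spread between them may be technical. Maternal RNAs of early embryos were abundant. In the authors' deposited table bcd, which encodes the anterior determinant, had means of 3620 in A and 3158 in B at 0-2 hr, and osk, which directs germ plasm assembly, had 14377 and 15142. At 2-4 hr the means there were 3069 and 2692 for bcd, which was not called, and 5223 and 3421 for osk, which was called lower in B.

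The members were chosen by the deposited means themselves, in which GILT2 and GILT3 were lower in B, so the values of the B against A contrasts below are a description and no test is offered for them. GILT2 RNA was reduced to 3.10% of its A mean at 0-2 hr and to 5.87% at 2-4 hr in the authors' deposited table, and GILT3 RNA to 0.840% and 1.50%. GILT1 RNA was at 86.9% and 99.4%. The authors' deposited table (DESeq, adjusted p under 0.05) called all 3 genes lower in B at 0-2 hr, where it called 5.61% of 13096 tested genes lower. At 2-4 hr it called GILT2 and GILT3 lower, against 8.14% of 14245 tested genes, and did not call GILT1.

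GILT2 was evenly present in condition A. At 0-2 hr the A libraries held 523, 525, 549 and 566 normalized reads, a mean of 541 ± 20.9 (SD, n = 4). The B libraries held 12.9, 14.0, 14.7 and 25.4, a mean of 16.7 ± 5.79 (SD, n = 4). All libraries of B lay far under all of A, and the lowest A library had 20.6 times as many normalized reads as the highest B library.

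At 2-4 hr the A libraries held 404, 467, 527 and 586 normalized reads of GILT2, a mean of 496 ± 78.4 (SD, n = 4). The B libraries held 20.01, 26.4, 29.3 and 40.8, a mean of 29.1 ± 8.71 (SD, n = 4). The groups again did not overlap, with the lowest A library 9.89 times as high as the highest B library. The authors' deposited table put the difference at a log2 of -5.01 (32.3-fold lower in B) at 0-2 hr and at -4.09 (17.0-fold) at 2-4 hr. GILT2 RNA stayed detectable in every B library, with 67 reads in all at 0-2 hr and 120 at 2-4 hr. The B libraries of the 2 times overlapped, since the highest at 0-2 hr (25.4) lay above the lowest at 2-4 hr (20.01), and the tables were normalized separately. Whether the difference between A and B changed with time was not tested.

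GILT3 was less abundant and less even in condition A. At 0-2 hr its A libraries held 20.7, 28.8, 77.7 and 161 normalized reads, a mean of 72.1 ± 64.6 (SD, n = 4) and a spread of 7.81 times from lowest to highest. In B 1 library had 3 reads, which are 2.42 normalized reads, and the other 3 had 0. A count of 0 allows up to 3 reads, or 3.04 to 3.38 normalized reads in these libraries. All of A lay above all of B, and the lowest A library had 8.52 times the level of the only B library with reads.

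At 2-4 hr the A libraries held 30.0, 31.4, 45.6 and 74.8 normalized reads of GILT3, a mean of 45.5 ± 20.8 (SD, n = 4). The B libraries held 2, 1, 0 and 0 reads, the first pair being 1.78 and 0.944 normalized reads. The groups did not overlap. The authors' deposited table gave a log2 of -6.89 at 0-2 hr and of -6.06 at 2-4 hr. With 3 reads in all of B at each time these folds are loose. Single libraries also weighed on them. Without the A library with 161 the log2 at 0-2 hr was -6.13, and without the B library with 1.78 the log2 at 2-4 hr was -7.17. Pooled over libraries, 302 reads in A against 3 in B at 0-2 hr gave a ratio of 101 with an exact 95% binomial interval of 34.3 to 493. At 2-4 hr 180 reads against 3 gave 60.0, with an interval of 20.2 to 294. These intervals, and the limit that a count of 0 allows, cover counting error only.

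**Figure D1:**
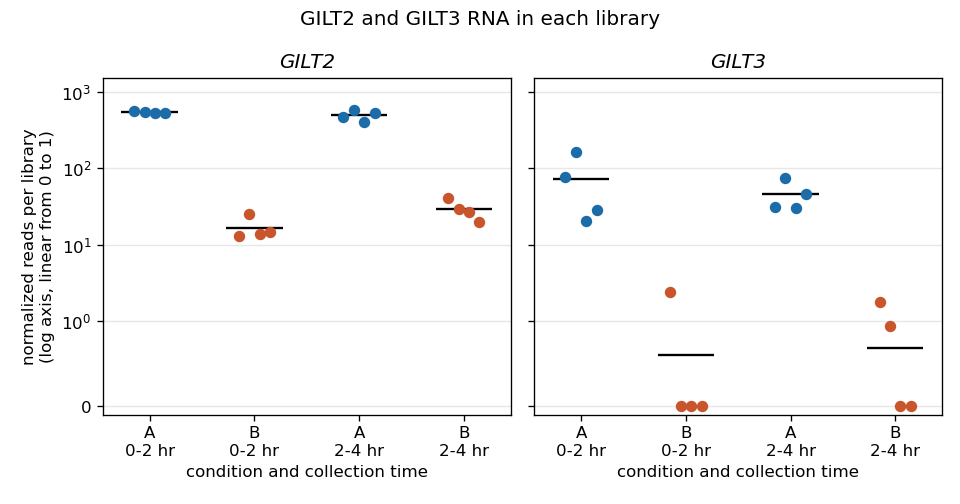
Normalized reads of GILT2 (left) and GILT3 (right) in each library of conditions A (blue) and B (orange) at 0-2 and 2-4 hr, on a log axis that is linear from 0 to 1; black lines are means of 4 libraries. The A libraries of GILT2 lie between 404 and 586 and its B libraries between 12.9 and 40.8, while GILT3 has no more than 2.42 in any B library.

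Among genes with an overall mean of 20 to 300 normalized reads whose libraries were recovered, all B libraries lay under all A libraries for 14.2% of 1631 genes at 0-2 hr and for 15.8% of 2627 at 2-4 hr. Separation of the libraries was thus common, and nothing is read from it alone for GILT2 and GILT3.

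GILT1, the most abundant of the 3, had a mean of 7072 normalized reads in A and 6145 in B at 0-2 hr in the authors' deposited table, a log2 of -0.20. Its adjusted p there was 0.0467 (DESeq), close to the threshold. At 2-4 hr the authors' deposited table gave means of 5635 in A and 5599 in B, a log2 of -0.01. Its means are too high for the reads of each library to be worked out, so no spread is given.

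Per kb of exon, the scale on which genes can be compared, the order of the levels was GILT1, GILT2, GILT3 in both conditions and at both times. Summed exon lengths in BDGP6 were 1122 bases for GILT1, 712 for GILT2 and 773 for GILT3. In A at 0-2 hr the mean level was 6303 normalized reads per kb for GILT1, 759 for GILT2 and 93.3 for GILT3. In B at that time it was 5477, 23.5 and 0.784. GILT1 was therefore 8.30 times as high as GILT2 in A and 233 times as high in B at 0-2 hr.

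At 2-4 hr the levels in A were 5023, 697 and 58.8 normalized reads per kb for GILT1, GILT2 and GILT3, and in B 4990, 40.9 and 0.880. The share of GILT1 in the summed level per kb of the 3 genes went from 88.1% in A to 99.6% in B at 0-2 hr, and from 86.9% to 99.2% at 2-4 hr. The summed level itself went from 7155 to 5501 normalized reads per kb at 0-2 hr and from 5778 to 5032 at 2-4 hr. These lengths come from another release of the annotation than the dm3 build of the study. In A the mean of each of the 3 genes was lower at 2-4 hr than at 0-2 hr, but the tables were normalized separately and no test was made.

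**Figure D2:**
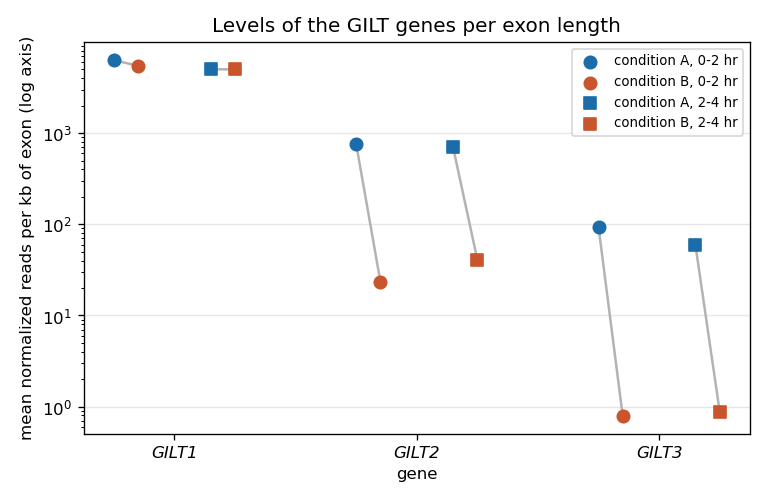
Mean normalized reads per kb of exon (log axis) of GILT1, GILT2 and GILT3 in conditions A (blue) and B (orange) at 0-2 hr (circles) and 2-4 hr (squares); grey lines join A and B. GILT1 lies between 4990 and 6303 per kb, while GILT2 goes from 759 to 23.5 and GILT3 from 93.3 to 0.784 at 0-2 hr.

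The libraries were not alike in the RNA of older tissue. Over 8 of 9 late-embryo muscle markers, 1 A library at 0-2 hr held 4751 normalized reads and the other 3 between 0 and 166, while the B libraries held 28.0 to 717. At 2-4 hr 1 A library held 6284 and the other 3 between 112 and 338, against 71.9 to 222 in B. The authors' deposited table (DESeq) called 0 of 9 of these markers at either time, with 0 and 1 at an unadjusted p under 0.05. Late-embryo neuron markers, of which 1 of 6 was called higher at 0-2 hr and 1 lower at 2-4 hr, also summed highest in the muscle-rich A library of each time. Of 11 early embryo markers the authors' deposited table called 1 higher at 0-2 hr, and 3 lower and 2 higher at 2-4 hr, a larger share than the 15.5% called in either direction among all genes tested then (11.2% at 0-2 hr). GILT2 and GILT3 were not highest in that library at either time. In the muscle-rich A library GILT2 had 523 normalized reads at 0-2 hr and 527 at 2-4 hr, the lowest of the 4 at 0-2 hr by a small margin and inside the range of the others at 2-4 hr, and GILT3 had 20.7, the lowest, and 45.6. Without that library the A mean of GILT2 was 32.7 times the B mean at 0-2 hr and 16.7 times at 2-4 hr, and that of GILT3 147 and 66.8 times.

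Summed over the 8 epidermis, gut and trachea markers, every B library lay under every A library at both times. The single markers did not all follow the sum. Over all 8 markers the A libraries held 338, 387, 440 and 1333 normalized reads at 0-2 hr, the highest being the muscle-rich one, and the B libraries 95.8 to 171. The A libraries of 2-4 hr held 100.4, 122, 137 and 2112, again with the muscle-rich one highest, and the B libraries 31.7 to 48.2. The authors' deposited table called 1 of the 8 lower at each time, Cht2, against 5.61% and 8.14% of all tested genes. Cht2 alone had means of 383 in A and 120 in B at 0-2 hr, out of list sums of 624 and 133. At 2-4 hr it had 86.0 and 12.7, out of 618 and 41.0. The libraries of A and B overlapped for serp and verm at both times. Cpr49Ah had higher means in B, 3.69 against 0.516 at 0-2 hr and 4.29 against 0.414 at 2-4 hr, and was not called. The part of such tissue in the values of GILT2 and GILT3 was not tested.

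Eggshell and yolk protein RNA, a sign of ovarian or older egg material, was highest in the A library with the most GILT3 at each time. Over the 9 of 13 markers recovered at 0-2 hr, 1 A library held 1117 normalized reads and the others 3.70 to 11.1, and that library had the most GILT3, 161. At 2-4 hr, over all 13 markers, the A library with 228 normalized reads, against 7.97 to 47.6 in the others, again had the most GILT3 (74.8) and also the most GILT2 (586). The authors' deposited table (DESeq) called 0 of 13 of these markers at either time, with 2 and 0 at an unadjusted p under 0.05. Over all tested genes 11.2% were called in either direction at 0-2 hr and 15.5% at 2-4 hr. In B at 0-2 hr the library richest in these markers held 1246 normalized reads and 0 reads of GILT3. The part of this material in the spread of GILT3 was not tested.

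Hemocyte and fat body markers were also followed. The defining hemocyte markers NimC1 and eater had means under 1 in both conditions at both times, and the 8 of 9 hemocyte markers recovered at 0-2 hr summed to 432 to 1843 normalized reads in A and 473 to 668 in B. At 2-4 hr 7 of 9 were recovered, with 376 to 1642 in A and 136 to 194 in B. In the authors' deposited table (DESeq) 0 of 9 were called at 0-2 hr, with 2 higher at an unadjusted p under 0.05, and 2 were called lower and 1 higher at 2-4 hr, where 8.14% and 7.38% of all tested genes were. Fat body markers, 6 of 7 recovered, summed to 3.32 to 25.8 in A and 10.8 to 25.9 in B at 0-2 hr, and to 21.5 to 36.4 and 20.1 to 38.7 at 2-4 hr, and 0 were called at either time (DESeq, with 0 and 1 at an unadjusted p under 0.05). Calls in either direction made up 11.2% of all tested genes at 0-2 hr and 15.5% at 2-4 hr. The fat body marker not recovered, apolpp, the lipophorin precursor, held most of the list's reads. Its means in the authors' deposited table were 755 in A and 209 in B at 0-2 hr and 1744 and 287 at 2-4 hr, and with it the list summed to 769 and 229, and to 1770 and 320. The highest hemocyte sum was in the muscle-rich A library at both times. In total RNA of whole embryos, fewer cells of a type and less RNA per cell cannot be told apart.

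The amount of Clamp left in B could be set beside GILT2 in each library. At 0-2 hr the B library with the most Clamp, 61.9 normalized reads, also had the most GILT2, 25.4, and the others had 29.1 to 47.7 of Clamp and 12.9 to 14.7 of GILT2. At 2-4 hr the B library with the most Clamp, 123, had the least GILT2, 20.01. With 4 libraries a time no relation was computed.

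Of 6599 genes with an overall mean of at least 20 normalized reads at both times, 39 (0.591%) had a mean at least 16-fold lower in B at both times. Reads of each library were recovered at both times for 29 of the 39. Of these 29, GILT2 and GILT3 were the only genes whose A libraries all lay above all B libraries at both times, a comparison chosen after their values were seen. They were also the only ones of the 29 that stayed at least 16-fold lower without the muscle-rich A library. The set was drawn by the same B against A means that chose GILT2 and GILT3. These comparisons therefore describe the set and lend no support to either gene.

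Apart from GILT2 and GILT3, every gene of that set whose libraries were recovered had most of its A reads in a single library. The muscle-rich A library held over 50% of the normalized reads of A for 28 of 30 genes recovered at 0-2 hr and for 33 of 35 at 2-4 hr, with medians of 99.5% and 99.0%. It held 24.2% and 26.6% of those of GILT2, and 7.16% and 25.1% of those of GILT3, against the 25% that an even split gives. Clamp, CG32512 and the muscle actin gene Act57B are in the set of 39 with A means too high to be split, so the same could not be asked of them. The authors' deposited table called Clamp and CG32512 lower at both times and did not call Act57B.

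**Figure D3:**
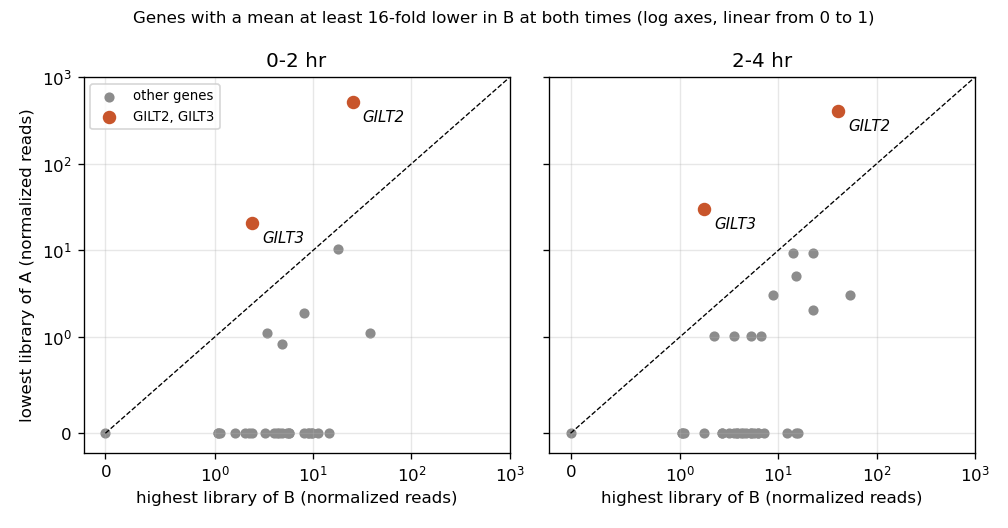
Lowest library of A against highest library of B (normalized reads, log axes that are linear from 0 to 1) for genes with a mean at least 16-fold lower in B at both times, at 0-2 hr (30 genes recovered) and 2-4 hr (35); the dashed line marks equal values. GILT2 and GILT3 (orange) lie above the line at both times, and each other gene (grey) lies on or under it.

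Genes nearest to GILT2 and GILT3 in their pair of log2 values over the 2 comparisons were found among 6597 genes. Nearest to GILT2 were Elovl7 (distance 0.379), ect (0.499) and CG15022 (0.642), and nearest to GILT3 were CG13159 (0.203), CG13049 (0.473) and CG15731 (0.489). Their likeness in mean folds did not extend to the libraries. Each of these 6 genes had between 96.5% and 100% of its A reads in the muscle-rich library at both times, and without it ect had 0 reads in A at 0-2 hr. Nearest to GILT1 were Spx, CG2924 and akirin, at distances of 0.00867, 0.0120 and 0.0133, values that many weakly changed genes share.

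The chromosomal surroundings of GILT2 and GILT3 were then examined, taking the 5 annotated genes on each side. On the right the next gene is eIF3d1, which encodes a subunit of translation initiation factor eIF3. The authors' deposited table gave it means of 4646 in A and 4425 in B at 0-2 hr (log2 -0.07) and of 4542 and 4707 at 2-4 hr (log2 0.05). On the left, on the opposite strand, lie CG31145 and then CG10184. In the authors' deposited table CG31145 had means of 90.6 in A and 50.2 in B at 0-2 hr (log2 -0.85) and of 84.1 and 40.6 at 2-4 hr (log2 -1.05). CG10184 had means of 95.7 and 52.4 (log2 -0.87) and of 23.8 and 11.9 (log2 -0.99) there.

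Neither CG31145 nor CG10184 was called. All their B libraries lay under all their A libraries at both times, which was also so for 14.2% and 15.8% of the genes recovered, so nothing is read from it. At 0-2 hr CG31145 had 71.3 to 114 normalized reads in the A libraries and 38.8 to 57.8 in the B libraries, and CG10184 had 76.4 to 132 and 47.4 to 58.6. At 2-4 hr CG31145 had 64.2 to 131 and 32.0 to 48.6, and CG10184 had 19.0 to 30.8 and 11.3 to 12.7. The muscle-rich A library was the highest for both genes at both times, and without it their A means were 1.59 to 1.80 times their B means.

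In all, the authors' deposited table (DESeq) called 0 of 8 tested neighbours of GILT2 and GILT3 at 0-2 hr, with 2 at an unadjusted p under 0.05, and 0 of 9 at 2-4 hr, with 1. Over all tested genes 11.2% and 15.5% were called in either direction. Most other neighbours had means under 20, among them SPE, the protease that activates Spätzle in Toll signalling, with 2.58 and 0 at 0-2 hr and 4.19 and 2.54 at 2-4 hr.

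The 5 annotated genes on each side of GILT1 were taken in the same way. Among them Droj2, a DnaJ-like chaperone gene, had log2 values of 0.01 at 0-2 hr and 0.17 at 2-4 hr. Dpm3, a subunit of the dolichol phosphate mannose synthase, had -0.16 and 0.26 in the authors' deposited table. It called CG9799 higher at 0-2 hr (log2 0.57) and yellow-e3 lower at 2-4 hr (log2 -0.78), each 1 of 10 tested neighbours of GILT1. Over all tested genes 5.56% were called higher at 0-2 hr and 8.14% lower at 2-4 hr, so nothing is read from these counts. CG14377, on the opposite strand, overlaps GILT1, and reads of the pair could not be told apart if the counting ignored strand, but its means were 3.01 or less.

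**Figure D4:**
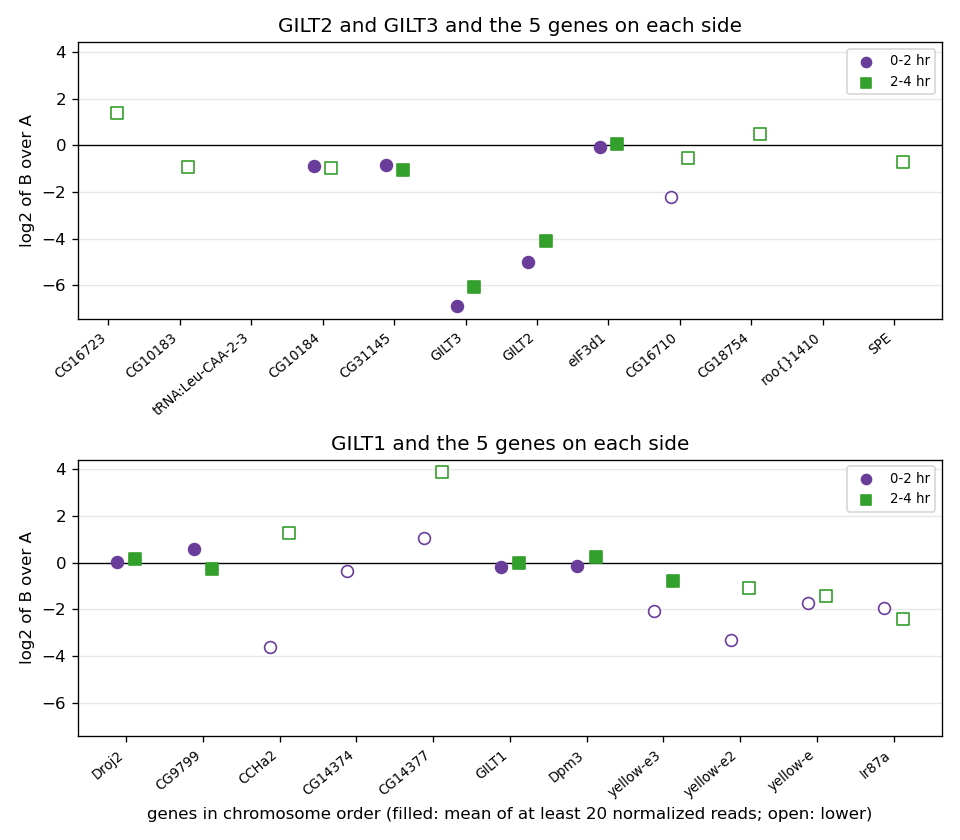
Log2 of B over A in the authors' deposited table at 0-2 hr (circles) and 2-4 hr (squares) for GILT3 and GILT2 (top) and GILT1 (bottom) with the 5 genes on each side in chromosome order; filled symbols have an overall mean of at least 20 normalized reads, open ones less, and genes with no finite value have none. GILT3 and GILT2 stand at -6.89 to -4.09, CG10184 and CG31145 near -1, and eIF3d1 near 0.

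Adjacent genes that were both at least 16-fold lower at both times formed 5 pairs in the whole annotation, and GILT3 with GILT2 was 1 of them. The other 4 were vkg and Col4a1, which encode collagen IV chains, verm and serp, which encode chitin deacetylases, Osi14 and Osi15, and Osi19 and Osi20, of the Osiris family. Wherever the reads of these 8 genes were recovered, over 95% of their A reads lay in the muscle-rich library.

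GILT enzymes belong to the wider set of proteins that exchange disulfides and thiols. The list holds 27 matched genes of the thioredoxin, disulfide isomerase, peroxiredoxin and glutathione synthesis systems. At 0-2 hr the authors' deposited table called 2 lower and 3 higher of 23 tested, where 5.61% of all tested genes were called lower and 5.56% higher. The median log2 was -0.00059 over 20 genes with a mean of at least 20, against -0.0063 over all 7036 such genes. The most significant were Gclc, the catalytic subunit of the first enzyme of glutathione synthesis (2.00-fold higher in B, log2 1.00), the peroxiredoxin gene Prx2 (log2 0.25) and prtp, a disulfide isomerase relative (log2 -0.27). At 2-4 hr 8 of 25 tested genes were called higher and 0 lower (DESeq, also 0 lower at an unadjusted p under 0.05). Of all tested genes 7.38% were called higher and 8.14% lower then in the authors' deposited table. The median log2 was 0.24, against -0.0077 over 7398 genes. CaBP1, a disulfide isomerase (log2 0.40), Gclc (log2 0.53) and the testis thioredoxin gene TrxT (log2 1.45) led there. These changes were small next to those of GILT2 and GILT3.

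Genes of the lysosome were next. Of 29 matched lysosomal enzymes and membrane proteins, the authors' deposited table called 5 lower and 0 higher of 29 tested at 0-2 hr (DESeq, with 3 higher at an unadjusted p under 0.05), and 1 lower and 3 higher of 28 at 2-4 hr. Over all tested genes 5.61% were called lower and 5.56% higher at 0-2 hr, and 8.14% and 7.38% at 2-4 hr. LManII, a lysosomal alpha-mannosidase, fell at both times, from 485 to 230 normalized reads (log2 -1.08) and from 701 to 289 (log2 -1.28) in the authors' deposited table. Mitf, a regulator of lysosomal genes, and Lamp1, a lysosomal membrane protein, had log2 values of -0.34 and -0.28 at 0-2 hr. The sterol carrier Npc2a and the protease CtsF were higher in B at 2-4 hr, with log2 values of 0.49 and 0.29 there. Npc2a was called in the other direction at 0-2 hr, with means of 1235 in A and 931 in B and a log2 of -0.41 in the authors' deposited table. Medians over genes with a mean of at least 20 were -0.11 over 15 genes at 0-2 hr and 0.14 over 16 at 2-4 hr.

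Of 13 matched subunits of the vacuolar ATPase, the pump that acidifies lysosomes, 3 were called lower and 0 higher at 0-2 hr in the authors' deposited table (DESeq, also 0 higher at an unadjusted p under 0.05). They were VhaPPA1-1 (log2 -0.36), Vha55 (log2 -0.25) and VhaM9.7-b (log2 -0.46). At 2-4 hr 1 was called higher, Vha36-1 (log2 0.61), and 0 lower, with 3 lower at an unadjusted p under 0.05 (DESeq, the authors' deposited table). Of all tested genes 5.61% were called lower and 5.56% higher at 0-2 hr, and 8.14% lower and 7.38% higher at 2-4 hr. The medians were -0.12 and -0.08 over 12 genes.

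Of 35 matched genes of immune recognition, signalling and antimicrobial peptides, the authors' deposited table called 2 lower and 2 higher of 30 tested at 0-2 hr, and 2 lower and 1 higher of 35 at 2-4 hr. These counts are near the shares over all tested genes, 5.61% lower and 5.56% higher at 0-2 hr and 8.14% and 7.38% at 2-4 hr. The lower ones at both times were cact, which encodes the inhibitor of the factor Dorsal (log2 -0.36 and -0.29), and Tl, the receptor upstream of it (log2 -0.33 and -0.34), genes that also act in the dorsoventral axis. The gene pirk, an inhibitor of the Imd pathway, was 7.89-fold higher at 0-2 hr, with means of 4.91 in A and 38.8 in B, and 7.90-fold higher at 2-4 hr, with 2.38 and 18.8, in the authors' deposited table. The fourth call at 0-2 hr was the cecropin gene CecA1, listed at 0 in A and with a mean of 14.9 in B there. Medians were 0.06 over 13 genes and 0.07 over 12.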

How the data were processed

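Per the labels' protocols, Trizol served for RNA extraction and a NuGEN Ovation kit, after removal of ribosomal RNA, for the libraries. Per the submitters' processing notes the build was dm3 and the tools were HTSeq 0.5.4p3, TopHat2 2.0.13 and DESeq, whose roles are not stated; strand setting and annotation are not given in the sources used here. Per the file headers the authors deposited, for each time, the mean normalized read count (of both conditions, of A and of B), the ratio of B over A, the log2 of that ratio, and p-values before and after adjustment, which matched a Benjamini-Hochberg adjustment. No differential expression test was computed here; calls are the authors' at an adjusted p under 0.05.

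Read values per library were recovered as the only set of 4 whole numbers whose weighted sum met the deposited mean within 4e-15 of it (or 1e-13 if larger). The weights, 1 read's worth in each library, were taken from low means. Simulated means were made with these same weights, so they cannot show an error in the weights. On them the recovered reads were exact in 80 of 80 draws at a mean of 0.5 and 80 of 80 at 10. At 100 they were exact in 79 of 80, and at 500 in 80 of 80. Of real genes with an overall mean of 20 to 300, 96.9% at 0-2 hr and 97.0% at 2-4 hr were recovered. Among those not recovered, 50 at 0-2 hr and 82 at 2-4 hr had no such set of whole numbers in at least 1 condition.

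The tables were used with symbols for 15002 of 15682 IDs. No coordinates are printed, since the annotation at hand is BDGP6. The members, lists and tests were chosen with earlier results of these data known. Named genes are the members, Clamp, the 5 genes on each side of each locus, from each list the 3 calls of lowest adjusted p at each time, and the 3 genes nearest in log2 values; marker genes (Act57B and apolpp among them), CG32512, the members of adjacent pairs and CecA1 were named after their values were seen. Alternatives were other call thresholds, pseudocounts, scalings and leaving out each recovered library. Computation used numba 0.67.0, numpy 2.4.6, pandas 2.3.3 and scipy 1.17.1 under Python 3.11.15, with figures from matplotlib 3.10.9.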

Additional observations from a re-analysis of the deposited data

Results flagged for a closer look

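For GILT2 and GILT3, the highest and the lowest of 4 recovered libraries were put to a gap test at the 95% level. This was done in each condition at each time. Only the highest passed, in 2 groups. By chance 1 end or the other passes in about 1 of 20 groups. For GILT2 in condition B at 0-2 hr the highest library held 25.4 normalized reads, with a gap of 0.862 of the group's range. For GILT3 in condition B at 0-2 hr the highest library held 2.42 normalized reads, which are 3 reads, where the others had 0. With the others at 0 the gap is the whole range for any count, so this value does not show a library that stands apart. These were different libraries.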

How the results depend on the processing

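Over all alternatives run, 87 values were marked as the same. For log2 values this mark means a move within the spread. For counts of calls it also covers small changes. At an adjusted p under 0.01, the family going from 3 to 2 at 0-2 hr and the thiol list going from 8 to 6 at 2-4 hr were so marked. Of the other values, 14 counts of calls were marked weaker, 6 were marked stronger, and 4 log2 values moved further than the spread. The log2 of GILT1 at 2-4 hr, which was not called, went from -0.0094 as deposited to 0.0044 with the condition means scaled to equal sums; no other GILT value changed sign. Leaving out each recovered library in turn kept the log2 of B over A between -5.29 and -4.91 for GILT2 at 0-2 hr, -4.30 and -3.95 for GILT2 at 2-4 hr, -7.20 and -6.13 for GILT3 at 0-2 hr, and -7.17 and -5.65 for GILT3 at 2-4 hr. Leaving out the only B library with GILT3 reads at 0-2 hr left no value. A pseudocount of 10 gave log2 values of -4.36 for GILT2 and -2.95 for GILT3 at 0-2 hr and of -2.38 for GILT3 at 2-4 hr, where a pseudocount of 1 gave -4.79; by construction these shrink low means. At an adjusted p under 0.01 the family had 2 calls at 0-2 hr, without GILT1. The neighbours of GILT2 and GILT3, with 0 calls in the main setting, had 2 at 0-2 hr (CG10184, CG31145) and 1 at 2-4 hr (CG31145) at an adjusted p under 0.1, and 1 at each time when p was adjusted over genes with a mean of at least 20. Neighbours of GILT1 went to 0 at both times for calls of at least 2-fold, and to 0 at 2-4 hr under 0.01. Under 0.01 the thiol list went from 5 to 2 at 0-2 hr and the lysosomal list from 5 to 3 and from 4 to 2. Under 0.1 the lysosomal list had 7 and the vacuolar ATPase list 2 at 2-4 hr. For calls of at least 2-fold, counts at 0-2 and 2-4 hr were 0 and 1 for the thiol list, 1 and 2 for the lysosomal list, 0 and 0 for the vacuolar ATPase list, and 2 and 1 for the immune list. Fewer genes can pass there by construction. Shares over all tested genes are not given for these other settings. Whether a list changed more than all genes did therefore cannot be told. No paired analysis was possible because the recovered libraries carry no replicate number. Depth limits GILT3 in B, with 3 reads at each time.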
